A study of Arabidopsis thaliana with 6 samples.

Results

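Chloroplasts in leaf cells move towards weak blue light and away from strong light. Here 8 genes that act in this response were followed in leaves of a double mutant of 2 splicing factor genes and of the wild type. They are JAC1, the blue-light receptor kinases PHOT1 and PHOT2, and the chloroplast movement genes CHUP1, PMI1, PMI2, WEB1 and KAC1. The 8 genes were picked by locus, out of 38194 loci listed, and the choice was made with expression results of the same libraries known. The difference of a whole gene between the genotypes is therefore given below as a description and carries no test.

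RNA was sequenced from rosette leaves of Arabidopsis thaliana that had been grown for 40 days in short days (8 h light and 16 h dark at 22 °C) and had not flowered. Both genotypes had 3 days of cold and dark as seeds and a light intensity of 85 to 120 µmol per square metre per second. The mac3a mac3b double mutant, which carries mutations in MAC3A and MAC3B, gave 3 libraries, and the wild type Col-0 gave 3. MAC3A and MAC3B are related subunits of the MOS4-associated complex, which binds the spliceosome, and the purpose was to learn why the double mutant flowers early. The labels do not name the mutant alleles, the time of day of harvest or the number of plants in a library. The p-values below measure the spread between these libraries, which may be technical.

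Phototropins are plasma membrane kinases that sense blue light through a pair of LOV domains. At low light PHOT1 and PHOT2 together start the accumulation response, in which chloroplasts gather at the lit cell face, and at high light PHOT2 drives the avoidance response. JAC1 carries a J-domain like that of the clathrin uncoating factor auxilin and is needed for the accumulation response. CHUP1 ties the chloroplast outer envelope to actin, KAC1 is a kinesin-like protein needed for the short actin filaments at chloroplasts, PMI1 is a plasma membrane protein needed for movement, and PMI2 and WEB1 are coiled-coil proteins that act together upstream of JAC1.

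Libraries held from 80626787 to 108909613 unique reads over the 13069 genes with such counts. MAC3A stood at 8.87, 6.31 and 5.92 RPKM (reads scaled to gene length and library size) in the mutant, against 22.0, 16.7 and 20.2 RPKM in Col-0. MAC3B stood at 8.98, 5.64 and 7.6 RPKM in the mutant, against 35.4, 36.4 and 49.0 RPKM in Col-0. Neither gene's groups overlapped, and both genes were lower in the mutant. Of the leaf markers, 4 of mesophyll summed to 28925 to 41572 RPKM in the mutant and 14485 to 40282 RPKM in Col-0. The flower marker LFY and the meristem markers STM and WUS were listed at 0 in all libraries, and the flower marker AP1 reached at most 0.01 RPKM in the mutant and 0.07 RPKM in Col-0. The flower marker AG was low but higher in all mutant libraries, with means of 1.02 ± 0.0265 RPKM in the mutant and 0.480 ± 0.160 RPKM in Col-0 (SD, n = 3 each).

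The sequences that follow are introns of these genes that the results turn on, read 5′ to 3′ on the gene's strand from the TAIR10.1 genome of RefSeq. Introns are numbered from the 5′ end of the gene. Capitals mark the GT that opens the intron, the AG that closes it, and the first stop codon met in frame if the intron is translated from the coding sequence before it. The first 2 are the JAC1 introns with the largest changes in the 5′ part of that gene. The next are the introns at matching places in PHOT1 and PHOT2, and the last are the most changed intron between coding bases in each of PMI1, CHUP1, KAC1 and WEB1.
JAC1 intron 1 (chr1:28193281-28193359, minus strand): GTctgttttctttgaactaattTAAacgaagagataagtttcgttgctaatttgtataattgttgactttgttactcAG
JAC1 intron 4 (chr1:28191901-28191977, minus strand): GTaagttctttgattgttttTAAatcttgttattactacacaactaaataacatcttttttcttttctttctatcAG
PHOT1 intron 11 (chr3:16821893-16821988, plus strand): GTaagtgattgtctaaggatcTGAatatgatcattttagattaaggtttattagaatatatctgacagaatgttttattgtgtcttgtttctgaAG
PHOT2 intron 12 (chr5:23527652-23527726, plus strand): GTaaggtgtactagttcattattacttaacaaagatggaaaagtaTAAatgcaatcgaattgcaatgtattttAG
PMI1 intron 1 (chr1:15978817-15978888, plus strand): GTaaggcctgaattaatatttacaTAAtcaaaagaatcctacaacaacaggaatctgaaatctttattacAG
CHUP1 intron 8 (chr3:9357095-9357169, plus strand): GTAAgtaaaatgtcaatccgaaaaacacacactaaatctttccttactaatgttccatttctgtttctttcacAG
KAC1 intron 6 (chr5:3295109-3295216, minus strand): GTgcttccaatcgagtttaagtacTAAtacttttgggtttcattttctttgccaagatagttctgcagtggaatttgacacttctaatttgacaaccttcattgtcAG
WEB1 intron 3 (chr2:11300153-11300240, plus strand): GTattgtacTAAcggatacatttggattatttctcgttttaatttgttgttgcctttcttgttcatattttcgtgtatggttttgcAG

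JAC1 (AT1G75100, chromosome 1, 28190740 to 28194068, minus strand) was the member whose level differed most. It stood at 21.2, 21.9 and 19.8 RPKM in the mutant, against 5.76, 7.48 and 7.20 RPKM in Col-0. Every mutant library lay far above every Col-0 library. The means were 21.0 ± 1.07 RPKM in the mutant and 6.81 ± 0.923 RPKM in Col-0 (SD, n = 3 each), a ratio of 3.08, and the log2 difference of RPKM + 1 was 1.499 (SE 0.157). In leaf tissue a difference of this kind cannot be told apart from a change in the number of cells that express the gene. The gap ran along the whole gene: exon depth beside its 8 introns, scaled to unique reads, was between 2.74 and 2.95 times as high in the mutant as in Col-0.

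The 7 other members did not separate by genotype. Of the 8, 1 (JAC1) had an adjusted p under 0.05 in limma's fit over 17163 genes, where 0.105% of all genes did. With the replicate number as a block, 1 of 8 did, where 4.52% of all genes did (776 against 18 genes), and by DESeq2 on unique read counts with the block JAC1 and PMI2 did, where 14.1% of all genes did. JAC1 missed the threshold in the limma fit with any 1 library left out. JAC1 was also the 1 member with all mutant libraries above all Col-0 libraries, a state that 9.15% of all genes were in. Since the members were picked with this contrast in view, nothing is read from these counts. In the authors' deposited table, JAC1 has a log2 fold change of 1.58 with an adjusted p of 4.15e-10, and PMI2 one of 0.84 with an adjusted p of 0.306. These values come from the same libraries, so they are no separate support.

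The receptors were both well expressed. PHOT1 (AT3G45780, chromosome 3, 16816721 to 16824210) stood at 112.9, 148.0 and 106.3 RPKM in the mutant, against 96.3, 122.9 and 72.2 RPKM in Col-0. In both genotypes replicate 2 was the highest and replicate 3 the lowest, and the mutant library was the higher in 3 of 3 same-numbered pairs although the groups overlapped. PHOT2 (AT5G58140, chromosome 5, 23523825 to 23533111) stood at 64.0, 79.4 and 69.8 RPKM in the mutant, against 53.8, 62.7 and 103.6 RPKM in Col-0. Replicate 3 of Col-0 was above all other libraries, and the log2 difference was 0.01 (SE 0.28).

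PMI2 and PMI1 varied with the replicate number in the same way in both genotypes. PMI2 (AT1G66840, chromosome 1, 24933777 to 24936512, minus strand) stood at 14.7, 8.02 and 19.4 RPKM in the mutant, against 8.49, 5.66 and 8.90 RPKM in Col-0. PMI1 (AT1G42550, chromosome 1, 15976805 to 15979952) stood at 54.5, 37.8 and 86.1 RPKM in the mutant, against 38.1, 33.6 and 55.0 RPKM in Col-0. For both genes replicate 3 was the highest and replicate 2 the lowest in each genotype, the mutant was the higher in 3 of 3 same-numbered pairs, and the groups overlapped. WEB1 (AT2G26570, chromosome 2, 11298914 to 11302319), the partner of PMI2, stood at 18.1, 18.9 and 23.1 RPKM in the mutant, against 20.7, 18.2 and 13.8 RPKM in Col-0. Its mutant library was the higher in 2 of 3 pairs, and replicate 3 was the highest in the mutant and the lowest in Col-0.

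The actin-linked members overlapped between the genotypes. CHUP1 (AT3G25690, chromosome 3, 9352444 to 9357953) stood at 86.8, 109.6 and 126.7 RPKM in the mutant, against 124.0, 127.7 and 125.5 RPKM in Col-0. The Col-0 libraries were close together and only replicate 3 of the mutant reached them. KAC1 (AT5G10470, chromosome 5, 3289925 to 3297434, minus strand) stood at 28.0, 35.1 and 38.3 RPKM in the mutant, against 30.8, 33.5 and 39.4 RPKM in Col-0, with replicate 3 the highest and replicate 1 the lowest in both genotypes. Their log2 differences were −0.24 (SE 0.21) for CHUP1 and −0.04 (SE 0.19) for KAC1.

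**Figure D1:**
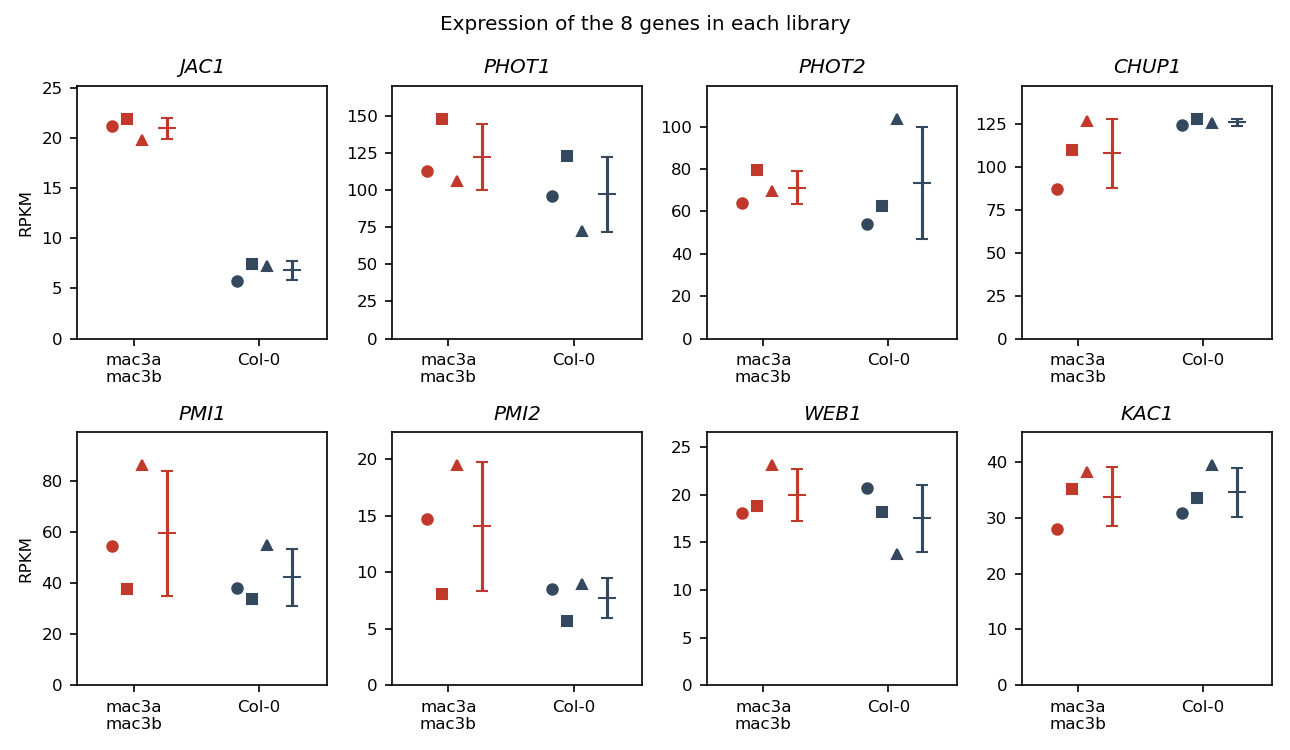
RPKM of the 8 genes in each library, with mac3a mac3b on the left of each panel and Col-0 on the right; circles, squares and triangles are replicates 1, 2 and 3, and the bars are the mean and SD of 3 libraries. JAC1 at 19.8 to 21.9 RPKM in the mutant is clear of Col-0 at 5.76 to 7.48 RPKM, and the libraries of the other 7 genes overlap.

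The order of the 8 levels differed at both ends. In the mutant it ran PHOT1, CHUP1, PHOT2, PMI1, KAC1, JAC1, WEB1 and PMI2, and the ranges of neighbours overlapped except between CHUP1 and PHOT2 and between KAC1 and JAC1. In Col-0 it ran CHUP1, PHOT1, PHOT2, PMI1, KAC1, WEB1, PMI2 and JAC1. There the neighbours did not overlap between CHUP1 and PHOT1, KAC1 and WEB1, and WEB1 and PMI2. JAC1 was thus sixth in the mutant at a mean of 21.0 RPKM, and had the lowest mean of the 8 in Col-0 at 6.81 RPKM, with a range that overlapped that of PMI2.

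Clock genes and some cell type markers differed between the same libraries. CCA1, a morning transcription factor of the circadian clock, stood at 30.9, 30.7 and 58.1 RPKM in the mutant, against 1.22, 3.56 and 6.90 RPKM in Col-0. TOC1, an evening factor of the clock, stood at 9.09, 11.9 and 16.2 RPKM in the mutant, against 56.6, 54.3 and 61.8 RPKM in Col-0. The 4 guard cell markers summed to 52.0 to 67.4 RPKM in the mutant and 39.3 to 42.6 RPKM in Col-0, with 3 of 4 (FAMA, KAT1 and HT1) higher in all mutant libraries and none at 0. The 3 epidermis markers summed to 82.1 to 121.3 RPKM in the mutant and 78.4 to 139.3 RPKM in Col-0. Single markers of other types were also higher in all mutant libraries, a state that 9.15% of all genes were in. The mesophyll marker LHCB2.1 stood at 3447, 4554 and 3062 RPKM in the mutant, against 2281, 1517 and 582 RPKM in Col-0. The epidermis marker PDF1 stood at 3.83, 3.30 and 4.17 RPKM in the mutant, against 2.27, 2.06 and 1.09 RPKM in Col-0. The phloem marker APL stood at 15.96, 18.4 and 15.4 RPKM in the mutant, against 9.87, 14.8 and 13.7 RPKM in Col-0. The other listed markers of these types (RBCS1A, LHCB1.3, CA1, ATML1, FDH and SUC2) overlapped between the genotypes. Of these only FDH had the lower mean in the mutant (72.1 against 76.4 RPKM). The 2 phloem markers summed to 115 to 262 RPKM in the mutant and 130 to 229 RPKM in Col-0. The part of the clock genes and of these cell types in the JAC1 result was not tested.

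The genes whose pattern over the 6 libraries was most like that of JAC1, by Pearson's r of log2(RPKM + 1) among 17162 genes, were AT1G66330, PP2CG1 and AT5G02370. AT1G66330, annotated as a senescence-associated family protein (r = 0.996), stood at 77.7, 85.4 and 69.3 RPKM in the mutant, against 22.0, 28.2 and 30.3 RPKM in Col-0. PP2CG1, a type 2C protein phosphatase (r = 0.995), stood at 7.42, 7.67 and 7.39 RPKM in the mutant, against 4.07, 4.60 and 4.16 RPKM in Col-0. AT5G02370, annotated as a microtubule motor family protein (r = 0.991), stood at 2.58, 2.83 and 2.37 RPKM in the mutant, against 0.870, 0.970 and 0.860 RPKM in Col-0. These r values mostly restate the step between the genotypes that JAC1 was picked for.

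Windows from 250 bases before to 50 bases after the annotated start of each gene were searched on both strands for 3 motifs. The evening element AAAATATCT, bound by clock MYB factors, the CCA1-binding site AAAAATCT and the G-box CACGTG were found in 0 of the 8 members. They were found in 2.82%, 7.88% and 7.68% of 27443 protein-coding genes. The letters are not in these windows, and longer windows were not searched.

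Of 15 other genes that act with phototropins or in chloroplast movement, 14 were expressed at a mean of at least 1 RPKM. None passed in limma's fit, where 0.105% of all genes did. Before adjustment 4 (RPT2, AT5G67385, PKS1 and AT3G01490) were under 0.05, as were 1893 of all 17163 genes. When fitted with the block, 3 rose and 0 fell, where 2.70% of all genes rose and 1.82% fell. The median log2 difference of the 14 was 0.32, against 0.01 over all 17163 genes. By DESeq2 with the block 4 of the 9 with unique read counts passed, where 14.1% of all genes did: RPT2, AT5G67385 and the auxin transporter ABCB19 were higher and PMI15 was lower.

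The 3 genes that rose with the block were RPT2, AT5G67385 and AT1G64500. RPT2, an NPH3-family protein that binds phototropins, stood at 94.98, 56.6 and 87.9 RPKM in the mutant, against 36.0, 25.9 and 51.6 RPKM in Col-0. Its groups did not overlap, and its log2 difference of 1.08 had a limma adjusted p of 0.0371 with the block and 0.311 without. AT5G67385, annotated as another member of the NPH3 family, stood at 30.3, 22.4 and 34.7 RPKM in the mutant, against 15.2, 13.4 and 13.7 RPKM in Col-0. Its groups did not overlap, and its log2 difference of 0.98 had a limma adjusted p of 0.0379 with the block and 0.191 without.

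AT1G64500, a glutaredoxin-like protein that the annotation ties to light-stimulated actin bundling and chloroplast movement, stood at 14.8, 11.4 and 73.3 RPKM in the mutant, against 3.8, 4.63 and 13.8 RPKM in Col-0. The groups overlapped since replicate 3 was the highest in each genotype, and the log2 difference of 1.73 had a limma adjusted p of 0.0328 with the block and 0.472 without. Without replicate 3 of the mutant its log2 difference was 0.93. NPH3, the phototropin-binding founder of its family, stood at 25.2, 31.95 and 34.3 RPKM in the mutant, against 16.2, 26.9 and 31.6 RPKM in Col-0 (limma adjusted p = 0.770, and 0.252 with the block). KAC2, the close relative of KAC1, stood at 8.81, 9.38 and 5.98 RPKM in the mutant, against 6.42, 7.16 and 5.13 RPKM in Col-0 (limma adjusted p = 0.675, and 0.190 with the block). Both were higher in the mutant in 3 of 3 same-numbered pairs while their groups overlapped.

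None of the 6 auxilin-like relatives of JAC1, which share its J-domain, passed with or without the block. Before adjustment 0 were under 0.05 in limma's fit, where 1893 of all 17163 genes were. Their median log2 difference was −0.07. AT4G36520, annotated as a DnaJ-domain chaperone, was the 1 relative with all mutant libraries below all Col-0 libraries, as were 7.28% of all genes, at 4.76, 7.35 and 3.75 RPKM in the mutant, against 7.42, 7.68 and 9.12 RPKM in Col-0.

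**Figure D2:**
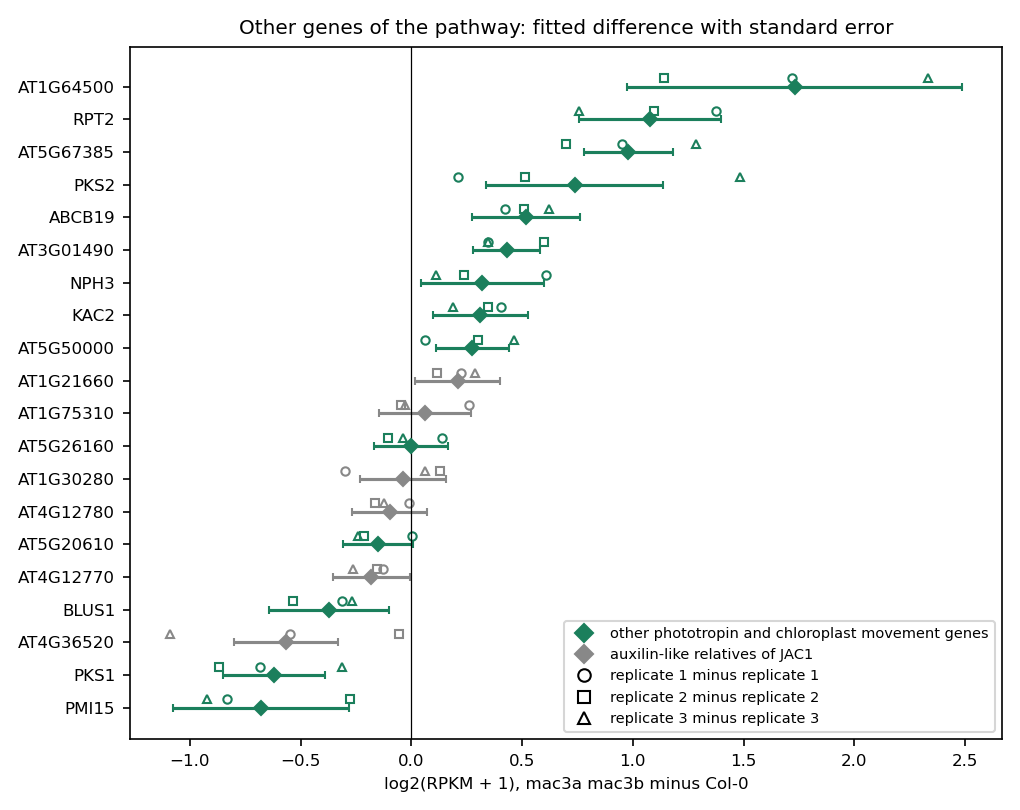
Difference in log2(RPKM + 1), mac3a mac3b minus Col-0, for the 14 other phototropin and chloroplast movement genes tested (green) and the 6 auxilin-like relatives of JAC1 (grey); diamonds with bars are the limma estimate and its standard error, and open symbols are same-numbered libraries. AT1G64500 at 1.73 (0.93 without replicate 3 of the mutant), RPT2 at 1.08 and AT5G67385 at 0.98 lie farthest to the right.

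Splicing was a second readout, from the same libraries. The members were chosen with earlier results of these data known, so it is not taken as independent of the choice. Retention is given as the read depth of an intron as a percentage of that depth plus the depth of its neighbouring exons, and an intron was tested by limma on the log2 ratio of the depths. Depths do not tell a finished mRNA that kept an intron from a transcript whose splicing was under way. Of the 89 introns of the 8 genes, 69 rose and 0 fell in the mutant, which is 77.5%, where 62.3% of 94773 introns of all genes rose and 0.0538% fell. All mutant libraries were above all Col-0 libraries in 74 member introns (83.1%), and in 65.5% of introns of all genes. With a minimum depth of 50 in every library, 70 of 88 member introns rose, and 57509 of 84071 introns of all genes. The median log2 difference was 2.05 over the member introns and 1.83 over all introns. In percentage points the median change was smaller over the member introns, at 0.910 against 1.25 over all introns. The median retention over member introns was 1.04%, 0.922% and 1.27% in the mutant, against 0.190%, 0.162% and 0.141% in Col-0. Over all introns it was 1.56%, 1.62% and 1.76% in the mutant, against 0.259%, 0.215% and 0.155% in Col-0. In all 8 genes some introns rose, so gain of intron reads was not limited to JAC1.

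Most of the gains were small next to the spliced form. The change was under 1 percentage point in 47 of the 89 introns, with slight falls at intron 1 of PHOT1 and of PHOT2 among them. It was at least 5 points in 5, of which PMI2 intron 1 did not pass (limma adjusted p = 0.399). Of the 80 introns that lie between coding bases, 68 meet an in-frame stop codon before their end, first at base 2 to 106 of the intron, with a median of 26. Of these 68, 54 rose, and of all 80 between coding bases 65 did, where 62.3% of introns of all genes rose.

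All JAC1 introns lie between coding bases, and 5 of 8 rose, where 62.3% of introns of all genes did. Intron 4 changed most, with 7.64%, 7.11% and 4.69% retained in the mutant, against 3.19%, 1.07% and 1.21% in Col-0 (4.66 points, limma adjusted p = 0.0132). It is 77 bases long, and its first in-frame stop is at base 21. Intron 8, the last, stood at 2.88%, 1.26% and 6.26% in the mutant, against 0%, 0.00871% and 0.648% in Col-0 (limma adjusted p = 0.00916). Intron 1 stood at 2.58%, 1.68% and 3.70% in the mutant, against 0.0149%, 0.162% and 0.157% in Col-0 (limma adjusted p = 0.00139). The groups of these introns did not overlap.

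The other JAC1 introns held less. Intron 2 stood at 0.956%, 0.565% and 0.315% in the mutant, against 0.0278%, 0.00487% and 0.0207% in Col-0 (limma adjusted p = 0.0118). Its average depth in Col-0 was 0.07, 0.02 and 0.07, which is also few reads. Intron 6 stood at 0.870%, 0.283% and 2.17% in the mutant, against 0%, 0.220% and 0.0129% in Col-0 (limma adjusted p = 0.0339), a call lost without any of 4 of the libraries. Introns 3, 5 and 7 did not pass, at limma adjusted p of 0.178, 0.0646 and 0.0779. In introns 3 and 7 replicate 1 of Col-0, at 1.46% and 1.16%, overlapped the mutant libraries, at 0.562% to 2.32% and 1.09% to 3.16%. The median over the 8 introns was 1.02%, 0.990% and 2.74% in the mutant, against 0.0214%, 0.0862% and 0.0980% in Col-0.

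Introns rose along both phototropin genes. In PHOT1 15 of 20 introns rose and in PHOT2 20 of 23, where 62.3% of introns of all genes did. The largest change in PHOT1 was at intron 20, its last, with 5.23%, 4.85% and 3.89% in the mutant, against 1.46%, 1.56% and 2.17% in Col-0 (2.93 points, limma adjusted p = 0.0136). The largest change of all member introns was at PHOT2 intron 12, with 10.04%, 6.67% and 16.3% in the mutant, against 4.69%, 2.14% and 2.62% in Col-0 (7.85 points, limma adjusted p = 0.0143). No library of the mutant fell within the Col-0 range at either intron.

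The phototropin genes share most of their exon pattern, which allows introns at matching places to be set side by side. In order from the 5′ end, 13 internal exons have the same length in both genes, out of 19 in PHOT1 and 22 in PHOT2, and they define 17 pairs of introns. An exon of 167 bases in PHOT1 is matched by exons of 90 and 77 bases in PHOT2, parted by intron 13. The change in points was larger in PHOT2 in 13 of the 17 pairs, and both introns rose in 13. On the log2 scale of the test, PHOT2 had the larger change in 10 pairs and PHOT1 in 7, and the median over all introns of the gene was 2.34 in PHOT1 and 2.09 in PHOT2. PHOT2 intron 12, shown above, is paired with PHOT1 intron 11. That PHOT1 intron stood at 0.549%, 0.183% and 0.293% in the mutant, against 0.0204%, 0.0132% and 0.00648% in Col-0 (0.328 points, limma adjusted p = 0.00120). On the log2 scale the order of this pair turned, with a change of 3.74 in PHOT1 intron 11 and 1.91 in PHOT2 intron 12. The PHOT2 intron has 75 bases with 28.0% G or C, and the PHOT1 intron has 96 bases with 28.1%. Both open with the letters GTAAG and differ thereafter. No test of the difference between the genes was made.

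**Figure D3:**
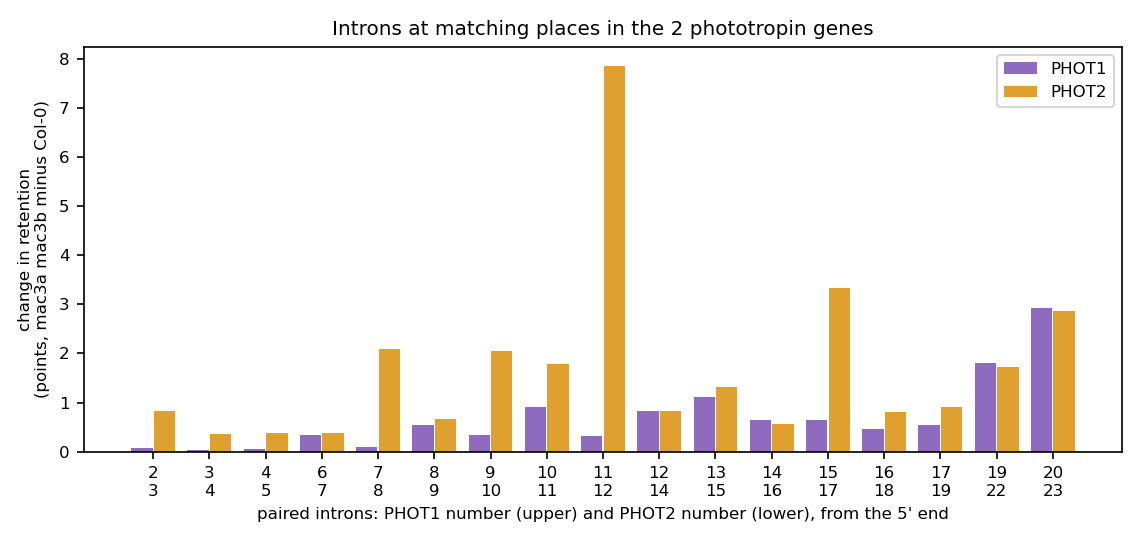
Change in retention in percentage points, mac3a mac3b minus Col-0 means of 3 libraries each, at the 17 pairs of introns between matching exons of PHOT1 (purple) and PHOT2 (orange). PHOT2 intron 12 at 7.85 points stands beside PHOT1 intron 11 at 0.328 points, while their log2 changes of 1.91 and 3.74 have the other order.

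CHUP1 kept more of its introns towards the 3′ end. Of its 10 introns 9 rose, where 62.3% of introns of all genes did. Intron 8 stood at 6.38%, 6.01% and 3.83% in the mutant, against 0.580%, 0.234% and 0.281% in Col-0 (5.04 points, limma adjusted p = 0.00104). Its stop codon overlaps the opening GT, at base 2. Intron 1, in the 5′ UTR, stood at 3.79%, 0.390% and 1.62% in the mutant, against 1.97%, 0.608% and 0% in Col-0 (limma adjusted p = 0.936). Average exon depth beside that intron was 22.3, 35.7 and 33.3 in the mutant and 21.9, 24.5 and 17.8 in Col-0, against 434.7 or more at the other CHUP1 introns, so its percentages rest on few reads.

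A rise along the gene in points was seen in PHOT1 as well. Spearman's rho between intron number and the change in points was 0.93 over the 10 introns of CHUP1, 0.86 over 20 of PHOT1, 0.58 over 23 of PHOT2, 0.46 over 22 of KAC1 and 0.21 over 8 of JAC1. Over the 4637 genes with at least 8 introns tested the median rho was 0.355, the quartiles were 0.0909 and 0.582, and the 95th percentile was 0.810. CHUP1 and PHOT1 thus lay above the 95th percentile on the scale of points. On the log2 scale of the test, CHUP1 changed most at intron 4 (4.76, against 3.06 at intron 10). PHOT1 changed most on that scale at intron 11 (3.74, against 1.47 at intron 20). The order of changes along these genes therefore depends on the scale. The points of a gene share their libraries and transcripts, so these values describe these genes only.

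The single intron of PMI1 (72 bases) rose clearly. It stood at 9.49%, 8.15% and 7.17% in the mutant, against 1.06%, 1.06% and 0.280% in Col-0 (7.47 points, limma adjusted p = 0.00175). The 3 mutant libraries were close together and far above Col-0. Its first in-frame stop is at base 25.

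PMI2 has an intron that was often kept in both genotypes. Intron 1, in the 5′ UTR, stood at 19.0%, 26.0% and 28.4% in the mutant, against 24.3%, 18.2% and 15.7% in Col-0 (limma adjusted p = 0.399). The groups overlapped, and its 5.06 points were the largest change in that gene without passing. Intron 2 rose, at 1.52%, 2.93% and 2.62% in the mutant, against 0.391%, 0.0240% and 0.130% in Col-0 (limma adjusted p = 0.00234). In the intron table WEB1 has 3 introns, and all rose, where 62.3% of introns of all genes did. The first is a gap of 1 base between 2 alternative first exons and is no intron in the usual sense, at 3.14%, 4.97% and 1.12% in the mutant, against 0%, 0.997% and 0% in Col-0 (limma adjusted p = 0.0240), a call also lost without any of 4 of the libraries. Intron 3, between coding exons, stood at 2.82%, 3.30% and 1.11% in the mutant, against 0.144%, 0.531% and 0.218% in Col-0 (limma adjusted p = 0.00493).

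KAC1 gained intron reads in 15 of 22 introns, where 62.3% of introns of all genes rose. Intron 6 stood at 7.70%, 9.20% and 14.0% in the mutant, against 4.40%, 3.59% and 2.61% in Col-0 (6.77 points, limma adjusted p = 0.0142). The neighbouring intron 7 was also often kept, at 2.21%, 6.40% and 9.87% in the mutant, against 2.16%, 4.47% and 2.11% in Col-0, but its groups overlapped (limma adjusted p = 0.205). Intron 13 stood at 1.90%, 2.32% and 9.69% in the mutant, against 0.514%, 0.150% and 0.425% in Col-0 (limma adjusted p = 0.00549), with replicate 3 of the mutant far above the other libraries.

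**Figure D4:**
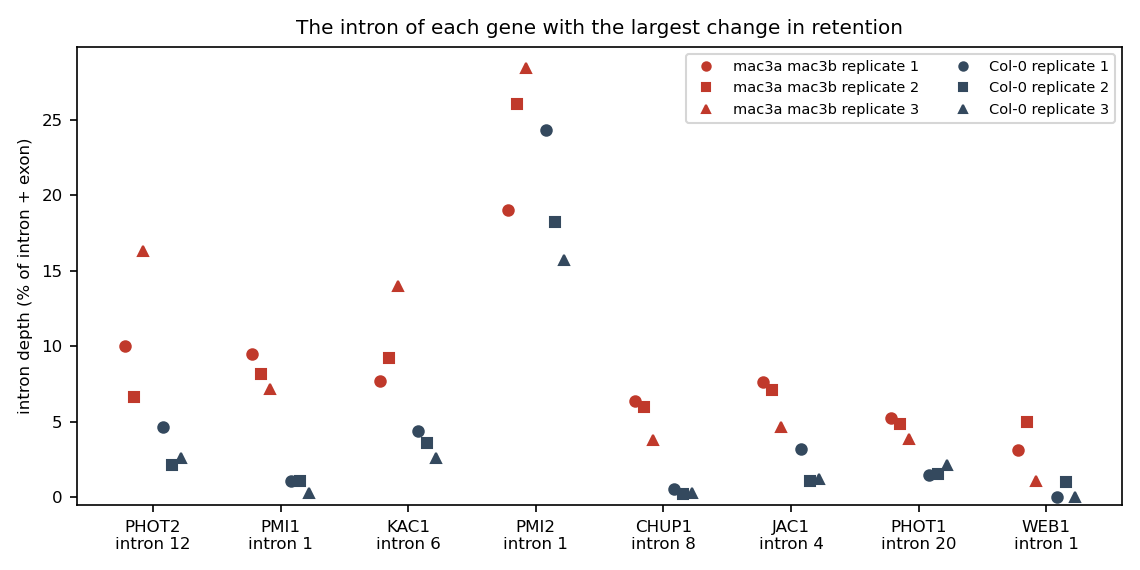
Retention (intron depth as a percentage of intron plus exon depth) at the intron of each gene with the largest change, for the 3 mac3a mac3b libraries (red, left) and the 3 Col-0 libraries (dark, right). The groups are apart in 7 of the 8 introns and overlap at PMI2 intron 1, which is kept at 15.7% to 28.4%. The introns were picked for their change, and all mutant libraries were above all Col-0 libraries in 65.5% of introns of all genes. WEB1 intron 1 is the gap of 1 base.

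Replicate 3 of the mutant went opposite ways in different genes. It had the highest retention of the 3 mutant libraries in 20 of 23 introns of PHOT2 and 18 of 22 of KAC1. It had the lowest in 13 of 20 introns of PHOT1, 7 of 10 of CHUP1 and 3 of 3 of WEB1. In JAC1 it was the highest in 5 of 8 introns and the lowest in the other 3. Introns of a gene share their libraries, so these counts only describe that library. The matching shares over all introns were not counted. Per gene, the median retention in the mutant minus that in Col-0 was 1.52 points for JAC1, 0.528 for PHOT1, 0.903 for PHOT2, 1.94 for CHUP1, 7.47 for PMI1, 3.62 for PMI2, 2.07 for WEB1 and 0.636 for KAC1. Without replicate 3 of the mutant it was 0.939 points for JAC1 and 0.372 for KAC1. By an exact two-sided permutation test over the 3 libraries a genotype, p was 0.2 for PMI2 and 0.1 for each of the others, the smallest that 3 against 3 allows, so no gene could pass 0.05 in this test.

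**Figure D5:**
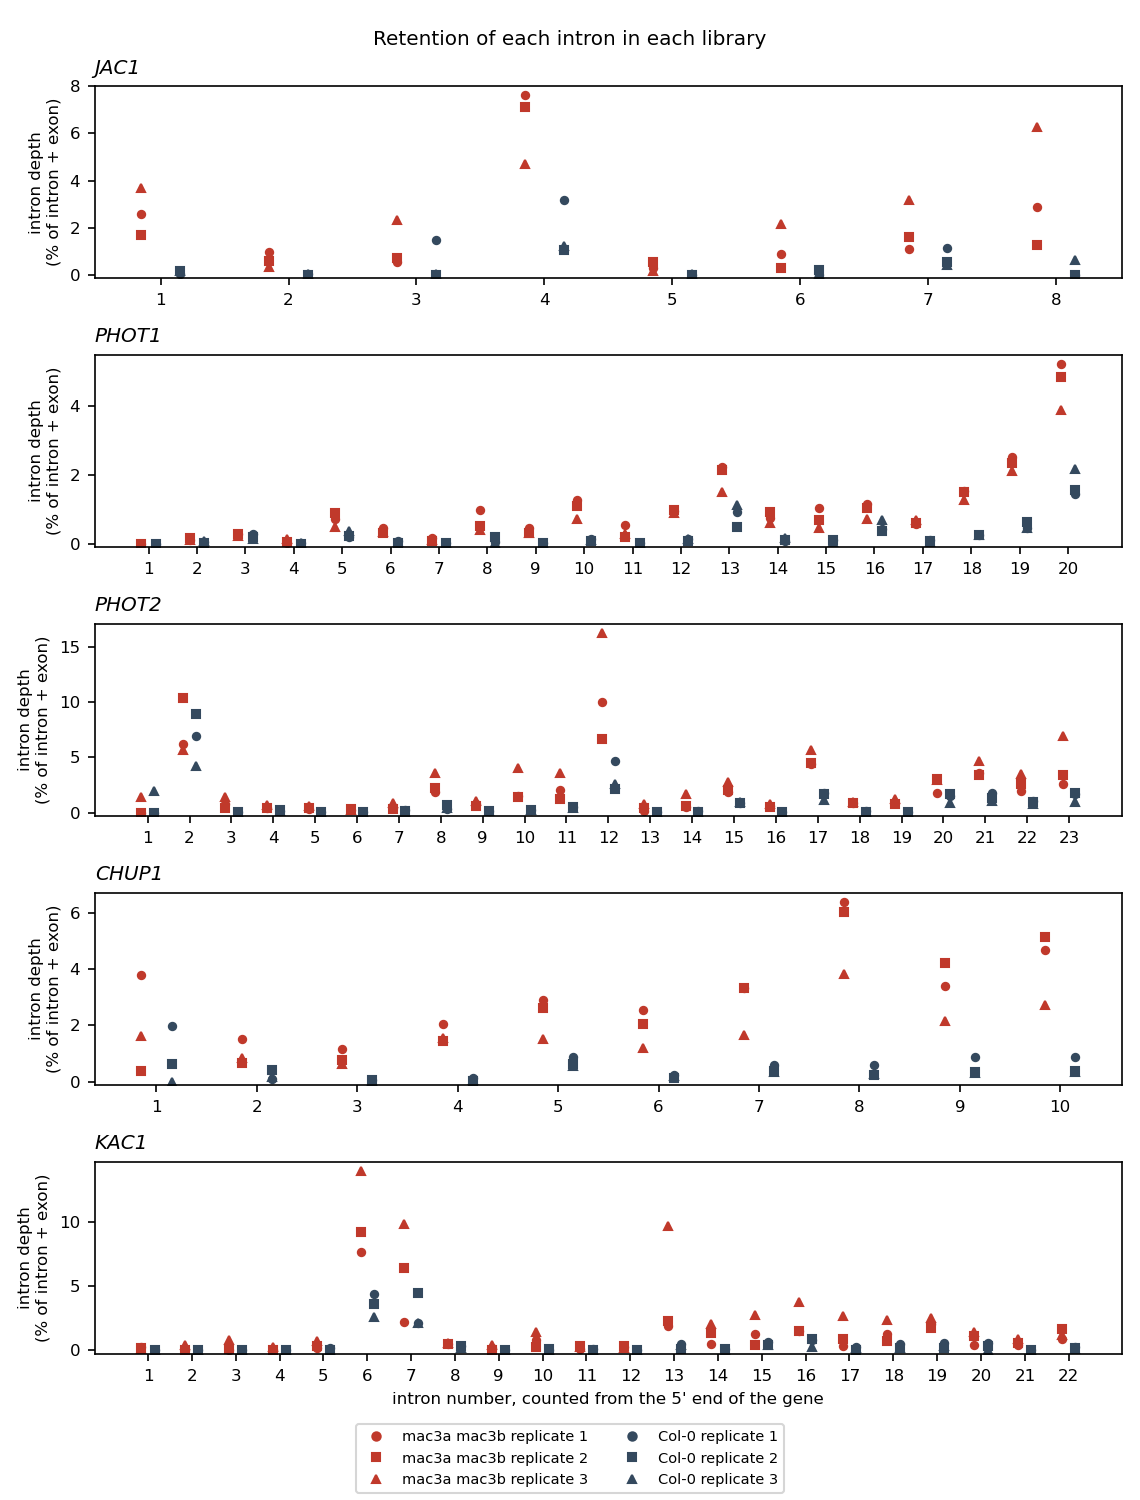
Retention of every intron of JAC1, PHOT1, PHOT2, CHUP1 and KAC1 in each library, by intron number from the 5′ end; red symbols are the 3 mac3a mac3b libraries, drawn left, and dark symbols the 3 Col-0 libraries. In points, CHUP1 and PHOT1 have their largest changes near the 3′ end, while PHOT2 intron 12 and KAC1 intron 6 stand out within those genes.

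Choice of splice site was compared next, with reads on a junction set against reads on competing junctions and tested by edgeR's quasi-likelihood test. Of 355 junctions of the 8 genes with enough reads, 1 rose and 0 fell, which is near the background: of 135996 junctions of all genes 0.138% rose and 0.0493% fell. The 1 was an acceptor of PHOT2 intron 6, which lies 17 bases before the annotated acceptor. It is shown with both AG letters in capitals, the first being the acceptor that rose.
PHOT2 intron 6 acceptors (chr5:23526451-23526509, plus strand): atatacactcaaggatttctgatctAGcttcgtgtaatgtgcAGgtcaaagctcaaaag
It had 10, 5 and 12 reads in the mutant and 0, 0 and 0 reads in Col-0 (edgeR adjusted p = 0.000827). Over the genotype that is 27 of 9603 reads in the mutant, or 0.281%, and 0 of 11889 reads in Col-0, which allows a share of up to 0.0252% by counting error alone (3 reads). Without replicate 3 of Col-0 the edgeR adjusted p was 0.0982.

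The commonest choices between sites were in the 5′ UTR of PHOT2 and within KAC1. PHOT2 intron 2 has a pair of donors 4 bases apart, both in capitals below.
PHOT2 intron 2 donors (chr5:23524535-23524562, plus strand): aagctactctgGTtgGTatatatatatt
The first donor took 68.9%, 67.4% and 72.9% of reads in the mutant, against 80.1%, 78.6% and 78.2% in Col-0. The groups did not overlap, and the difference of −9.25 points was the largest of any member junction with at least 60 reads of each kind over the 6 libraries, but it did not pass (edgeR adjusted p = 0.684, and 0.157 when fitted over such junctions alone). KAC1 intron 15 has a pair of acceptors 3 bases apart.
KAC1 intron 15 acceptors (chr5:3292814-3292858, minus strand): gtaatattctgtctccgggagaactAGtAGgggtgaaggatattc
The second acceptor took 57.2%, 54.4% and 61.7% of reads in the mutant, against 57.4%, 54.6% and 54.1% in Col-0 (edgeR adjusted p = 0.947). The groups overlapped.

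JAC1 had a minor acceptor 13 bases before that of intron 7, the first of the AG pair in capitals.
JAC1 intron 7 acceptors (chr1:28191409-28191463, minus strand): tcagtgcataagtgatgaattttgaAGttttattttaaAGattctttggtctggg
It took 5.68%, 7.05% and 4.94% of reads in the mutant, against 6.803%, 4.35% and 5.33% in Col-0 (edgeR adjusted p = 0.964). The groups overlapped, so that no change in this choice was detectable in JAC1. In PHOT2 intron 22 a donor 68 bases upstream, inside the exon, took 0.634%, 0.331% and 1.64% of reads in the mutant, against 0.202%, 0.157% and 0.337% in Col-0 (edgeR adjusted p = 0.279). It passed only when junctions with at least 60 reads of each kind were fitted with the replicate block (edgeR adjusted p = 0.0116), where 4.87% of such junctions of all genes passed, and the usual donor of that intron fell in the same fit as the other side of the same choice (edgeR adjusted p = 0.0471).
PHOT2 intron 22 donors (chr5:23529483-23529582, plus strand): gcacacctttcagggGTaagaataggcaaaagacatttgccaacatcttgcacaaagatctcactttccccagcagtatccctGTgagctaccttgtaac

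The members with fewer such reads showed no call. In WEB1 the usual acceptor after its first exon took 87.6%, 90.9% and 90.4% of reads in the mutant, against 94.3%, 94.9% and 94.1% in Col-0; the groups did not overlap but the difference did not pass (edgeR adjusted p = 0.684). PMI2 intron 1 has a pair of donors 5 bases apart, and the first took 75.2%, 77.5% and 73.9% of reads in the mutant, against 74.2%, 84.0% and 74.2% in Col-0 (edgeR adjusted p = 0.950). In PHOT1 and CHUP1 the most changed junction with at least 60 reads of each kind moved by −0.0961 and −0.0147 points.

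No exon skipping event of the 8 genes passed in edgeR's test, out of 19 tested, where 0.0162% of 12382 events of all genes did. Limma on the ratio of reads also called 0. Before adjustment 1 was under 0.05 in edgeR's test, as were 502 of the 12382 events of all genes. That 1 was a PHOT2 event with 2, 0 and 4 skipping reads in the mutant and none in Col-0. The event of PHOT2 with the most skipping reads leaves out exon 2 and had 9, 21 and 16 skipping reads in the mutant, against 9, 4 and 14 in Col-0 (edgeR adjusted p = 0.614). JAC1 had 2 skipping reads in all, both in replicate 3 of the mutant. A KAC1 event, picked after its values were seen, had 3, 0 and 27 skipping reads in the mutant, against 3, 2 and 0 in Col-0 (edgeR adjusted p = 0.614), so that its reads came mostly from the mutant library with the high KAC1 intron 13.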

How the data were processed

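Poly(A) RNA of 6 libraries was analysed from the deposited tables. Per the submitters' processing notes, the tools Trimmomatic, Bowtie2 and DESeq2 and the build TAIR10 were used, with no version or role given. The expression values are read as the authors' RPKM, because each value times gene length was proportional to the deposited unique read counts. The authors' deposited table also gives a log2 fold change and an adjusted p-value per gene and a gene length in kilobases. The splicing tables hold deposited counts of junction reads and, for introns, average read depth (a coverage signal) of the intron and its exons. As the genes had RPKM and the introns depths, tests for such values were used in place of count tests.

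Limma 3.58.1 (R 4.3.3) compared log2(RPKM + 1) between the genotypes for genes averaging 1 RPKM or more; this scale understates fold changes of low genes. For introns limma took log2 of the ratio of intron depth + 0.5 to exon depth + 0.5, given an intron plus exon depth of at least 10 in every library. For skipping and junctions, edgeR 4.0.16 tested whether the split between both kinds of read differed by genotype, given a total of 10 or more such reads in each library. Mirror copies of junction rows (24122) were removed. All p-values were adjusted by Benjamini-Hochberg over the whole table, with a threshold of 0.05. DESeq2 1.42.0 on unique read counts was an alternative.

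The members, gene lists and named introns and junctions were chosen with earlier results of these data known. Each member was named; introns were named by the largest change per gene or a passing change of at least 5 points, with all of JAC1, and junctions by a passing test or the largest change with at least 60 reads of each kind. KAC1 introns 7 and 13, PHOT1 intron 11, PMI2 intron 2, WEB1 intron 3, CHUP1 intron 1 and AT4G36520 are named beyond those rules, after their values were seen. Of the table's introns, 99.3% were placed on a TAIR10.1 intron of equal length, and 88 of 89 of the members'; the tests were tried on simulated data.

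Same-numbered libraries deviated together in expression (r = 0.62, 0.78 and 0.43 across genes for replicates 1, 2 and 3), so the numbers were taken to pair the libraries; the meaning of a number is not given in the labels.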

Additional observations from a re-analysis of the deposited data

How the results depend on the processing

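Of the counts over all genes, 18 genes passed in the limma fit, against 776 with the replicate block, 45 with no filter on low values, 0 by edgeR on unique read counts (1246 at an unadjusted p under 0.05), 463 by DESeq2 and 1843 by DESeq2 with the block, and 0 to 11 with a library left out. Of the other phototropin and chloroplast movement genes 0 passed, against 3 with the replicate block, 1 by DESeq2 (AT5G67385) and 4 by DESeq2 with the block (RPT2, AT5G67385 and ABCB19 higher, PMI15 lower), and 0 with any library left out. The log2 difference of JAC1 was 1.40 to 1.63 under every alternative; it lost the threshold with libraries scaled to equal sums, by edgeR and without any 1 library. Those of the other 7 members moved by less than their spread, and the signs of PHOT2 and KAC1 turned with single libraries left out (−0.19 to 0.28 and −0.13 to 0.09). Skipping events that passed numbered 2, against 4 with the replicate block, 8 with at least 60 reads of each kind, 20 with that minimum and the block, 75 by limma, and 0 to 4 with a library left out. Donor and acceptor events numbered 254, against 403 with at least 60 reads of each kind, 605 with that and the block, 22 by limma, and 87 to 179 with a library left out; those of the members numbered 1, against 0, 2 and 0 in these settings, and 0 to 1 with a library left out. The minimum of 60 together with the block, and the library left out of the median retention, were chosen after seeing the data.

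Intron retention deviated together less (r = 0.0648, 0.124 and 0.0487 for same-numbered libraries), so the replicate block is given here only: 68 of 89 member introns rose with it, and 205 donor and acceptor events passed. Member introns that rose numbered 60 to 66 with a library left out. JAC1 intron 6 did not pass with the block (limma adjusted p = 0.0523) or without replicates 1 or 3 of either genotype (0.0777 to 0.100), and WEB1 intron 1 did not without replicates 1 or 2 of the mutant or 1 or 3 of Col-0 (0.0542 to 0.0785); the cause was not tested. The PHOT2 acceptor had an adjusted p of 0.0707 by limma. Counts of junction reads limit the minor sites.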
